A study of Mus musculus with 22 samples.

Results

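The 8 genes described here encode the enzymes that write and remove methylation on cytosine in mouse DNA and their closest partners: Dnmt1, Dnmt3a, Dnmt3b, Dnmt3l, Uhrf1, Tet1, Tet2 and Tet3. They were chosen by name, for their place in the pathway, and are 8 of the 55487 gene rows in each of the tables. All 8 passed the filter on low values in both tables. RNA was measured by poly(A) RNA-seq in mouse embryonic stem cells in which Dux had been knocked out (Dux-/-), kept in 2iLIF medium, which holds such cells in a naive state. DUX is a transcription factor of the early embryo, known for its activation of genes of the 2-cell stage. By genotype each group carried mCherry, a red fluorescent protein, alone or with DUX or a DUX derivative, and every group, the mCherry controls included, received 0.25 ug/mL doxycycline for 12 hours after 24 hours of recovery.

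The groups are named as in the labels: FL is full-length DUX, mCherry is the tag alone, and C1+14, C3+14, C1C3a, C1C3b, C1C3c, C12345delt14, deltC12345+14 and deltC12345delt14 are derivatives whose names the labels do not spell out. Each group has 2 replicates, and the labels do not say whether these were separate cultures or whether a line was 1 clone, so the p-values measure only the spread between these samples. The chimera table holds mCherry, FL, C1+14, C3+14 and the constructs C1C3a, C1C3b and C1C3c (14 libraries). The deletion table holds FL, C12345delt14, deltC12345+14 and deltC12345delt14 (8 libraries). FL is represented by the same libraries in either table. Each table was scaled on its own, so groups were compared only within a table.

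Methylation of cytosine next to guanine (CpG) is copied to the new strand after replication by DNMT1, which UHRF1 brings to half-methylated sites. New methylation is laid down by DNMT3A and DNMT3B, and DNMT3L, which has no catalytic activity of its own, stimulates them. TET1, TET2 and TET3 oxidise methylcytosine, which opens the way to its removal. In naive embryonic stem cells Tet1 and Tet2 are the main TET genes, and Tet3 belongs to the oocyte and zygote. Germline genes and imprinted regions are among the known places where loss of methylation is seen in expression.

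Tet2 had the smallest adjusted p of the 8 among the groups of the chimera table, and Tet1 is the other main TET gene of naive cells, so the stretch of 250 bases that precedes the annotated start of each is shown, from the RefSeq promoter table (GRCm38.p6), 5' to 3' on the gene's strand, with every CpG in capitals. The Tet1 stretch is chr10:62887325-62887574 on the minus strand, with 15 CpG, and the Tet2 stretch is chr3:133544391-133544640 on the minus strand, with 51 CpG. The RefSeq starts of both Tet1 and Tet2 lie inside the GENCODE genes given further on, not at their outer ends, and so do both stretches.
Tet1: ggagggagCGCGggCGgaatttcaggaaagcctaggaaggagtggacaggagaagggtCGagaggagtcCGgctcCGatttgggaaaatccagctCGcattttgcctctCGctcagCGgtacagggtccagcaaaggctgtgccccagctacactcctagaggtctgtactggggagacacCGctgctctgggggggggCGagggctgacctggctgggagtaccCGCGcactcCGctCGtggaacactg
Tet2: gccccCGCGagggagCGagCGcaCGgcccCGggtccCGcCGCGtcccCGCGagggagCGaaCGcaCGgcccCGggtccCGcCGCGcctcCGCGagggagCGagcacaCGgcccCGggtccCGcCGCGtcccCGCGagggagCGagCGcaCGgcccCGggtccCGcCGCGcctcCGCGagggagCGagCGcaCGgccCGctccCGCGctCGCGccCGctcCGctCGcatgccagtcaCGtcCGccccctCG
The median over 32851 such windows was 6 CpG. No more CpG than in the Tet2 window was found in 99.95% of them, and no more than in the Tet1 window in 74.56%. A single Tet3 window held 17 CpG, the Dnmt3b window 21, the 3 Dnmt3a windows 38, 40 and 15, the 2 Uhrf1 windows 10 and 30, the 3 Dnmt1 windows 2, 7 and 26, and the 3 Dnmt3l windows 5, 4 and 3.

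In the annotation (GENCODE M21, GRCm38) the genes are Dnmt1 on chromosome 9 (20907209 to 20959888, minus strand), Dnmt3a on 12 (3806007 to 3914443, plus), Dnmt3b on 2 (153649450 to 153687730, plus), Dnmt3l on 10 (78041947 to 78063622, plus), Uhrf1 on 17 (56303321 to 56323486, plus), Tet1 on 10 (62804570 to 62908996, minus), Tet2 on 3 (133463679 to 133545139, minus) and Tet3 on 6 (83362373 to 83459084, minus). Uhrf1 shares 15.4% of the 50-base stretches of its exons with Gm5648 and Gm15953, and Dnmt3b shares 9.81% with Dnmt3c, so reads of these pairs could have been split or left out by the authors' counting. Gm5648 held 5 to 253 reads and Gm15953 4 to 23 over all libraries, and Dnmt3c held 6 to 62. In the chimera table Gm5648 held 5 to 10 reads in the C3+14 and mCherry libraries and 50 to 152 in the others. In the deletion table it held 36 in replicate 2 of deltC12345+14, 35 in replicate 1 of deltC12345delt14, and 87 to 253 in the others. Its part in the Uhrf1 values was not tested. The other 6 genes share under 1% of such stretches. Exons of Dnmt3l overlap those of Aire by 67 bases and exons of Dnmt3a overlap those of Dnmt3aos by 133 bases, both on the opposite strand. Dnmt3aos held 0 to 2 reads. The library kit keeps strand, but whether the counting used strand is not given in the sources used here.

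Library totals were 21059953 to 40448890 reads. The row of the Dux gene itself (Duxf3) held 0 reads in 14 of 14 and 8 of 8 libraries, so it does not tell the constructs apart, and the transgene was not measured by it. All 8 fixed markers of embryonic stem cells were expressed in every library, from 276 normalised reads upward in the chimera table (Klf4). Their sum was 100351 to 102013 in mCherry, 68488 to 83807 in FL and 47359 to 53293 in C1C3b. Single markers spread more widely than the sum over the chimera libraries. Nanog ranged from 1051 to 16214, Esrrb from 1039 to 13881, Klf4 from 276 to 3203 and Sox2 from 463 to 4962. Zfp42 ranged from 2288 to 11316, Tfcp2l1 from 5178 to 19721, Dppa5a from 15030 to 38055 and Pou5f1 from 8350 to 20815. The summed levels of 6 fibroblast, 5 primitive endoderm and 4 trophectoderm markers stayed between 63.3 and 741 normalised reads in every library. Within that range the primitive endoderm sum was 63.3 to 75.5 in mCherry and 520 to 564 in C1C3b, and the trophectoderm sum was 167 to 170 and 287 to 434. Of the trophectoderm markers, Eomes reached 403 in the chimera table, Elf5 50.7, Cdx2 34.3 and Hand1 4.86. Gata4, Sox7, Cdx2, Elf5, Hand1, Col3a1 and Postn were at 0 in at least 1 library of each table. The part of these markers in the results below was not tested.

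Markers of the 2-cell-like state set the groups far apart. Their sum over 5 genes was 1235140 to 2375210 normalised reads in FL, 892714 to 1264980 in C1C3a, 514146 to 562511 in C3+14, 11619 to 14994 in C1C3b, 576 to 648 in C1C3c, 4.34 to 10.2 in C1+14 and 0.660 to 0.858 in mCherry. In the deletion table it was 623037 to 978130 in C12345delt14 and at most 3.28 in both groups named deltC12345. In bulk RNA, fewer cells in a state and less RNA per cell cannot be told apart.

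2 properties of the libraries touch every comparison. The first is scale. The deposited size factors left normalised totals that differed between libraries. In the chimera table they were highest in FL and C1C3a and lowest in C1+14 and C1C3c. When all libraries were instead set to the same total, the median gene moved by -1.02 on the log2 scale in FL against mCherry, by -0.91 in C1C3a and by -0.78 in C3+14, but by -0.10 in C1C3b, 0.19 in C1C3c and 0.22 in C1+14. The share of called genes that were higher went from 55.5% to 27.8% in FL, from 59.0% to 32.8% in C1C3a, from 62.6% to 37.4% in C3+14 and from 67.5% to 79.6% in C1+14. With quantile normalization it was 41.2%, 41.0% and 42.4% in FL, C1C3a and C3+14, 47.8% in C1C3b (61.7% with the deposited factors), 53.6% in C1C3c (63.6%) and 58.4% in C1+14. Each result below is given on the deposited scale, and where the other scale ends it, that value stands beside it. The second is a library property that no label names. Reads on 295 ribosomal protein pseudogenes came to 8.30% to 9.34% of the reads on 88 ribosomal protein genes in the C3+14 and mCherry libraries and to 10.9% to 11.8% in the other 10 libraries of the chimera table. Among the comparisons with mCherry it therefore cannot be told apart from the construct, except for C3+14, which is of the same kind as mCherry.

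All 8 genes differed among the 7 groups of the chimera table (limma F test, Benjamini-Hochberg adjusted p from 3.5e-07 for Tet2 to 0.0016 for Dnmt3b), in a table in which 89.9% of the 21584 genes tested did so. In a single comparison a gene was called at an adjusted p under 0.05 and a difference of at least 2-fold. Against mCherry, 3 of the 8 were called in FL (44.2% of all genes were called) and 3 in C1C3b (44.7%), 5 in C3+14 (47.3%) and 5 in C1C3a (46.4%), and 2 in C1C3c (28.8%) and 2 in C1+14 (18.3%). None of these shares can be read as particular to the 8 genes. The median log2 difference over the 8 genes was lowest in C3+14 at -1.13, then -0.73 in C1C3b, -0.62 in C1C3c, -0.48 in C1C3a, -0.19 in FL and -0.09 in C1+14, beside medians over all genes of 0.23, 0.15, 0.01, 0.12, 0.09 and 0 in that order.

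**Figure D1:**
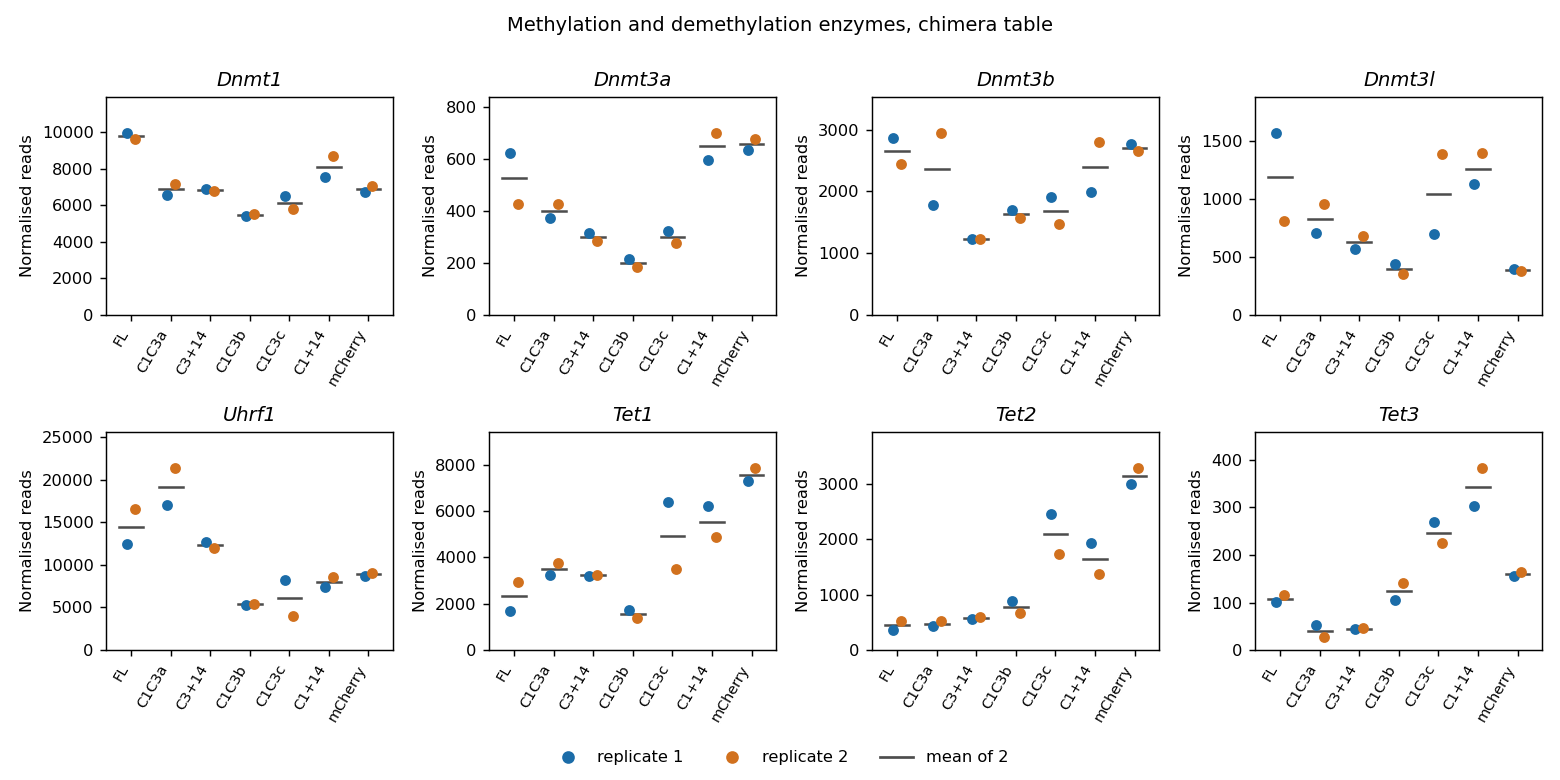
Normalised reads (vertical axis, from 0) of the 8 genes in the 14 libraries of the chimera table, by group; points are libraries coloured by replicate number and the line is their mean. Tet1 and Tet2 are highest in mCherry, Dnmt3l is lowest in mCherry and C1C3b, and Uhrf1 is highest in C1C3a.

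Tet1 and Tet2, the TET genes of naive stem cells, were lower in the 4 constructs with the highest 2-cell marker sums. Tet2 stood at 2998 and 3285 normalised reads in mCherry, 2457 and 1729 in C1C3c, 1933 and 1368 in C1+14, 887 and 670 in C1C3b, 560 and 604 in C3+14, 439 and 522 in C1C3a, and 361 and 533 in FL. The FL, C1C3a, C3+14 and C1C3b libraries all lay below every library of C1C3c, C1+14 and mCherry. Tet2 fell by 2.84 on the log2 scale in FL (SE 0.23, adjusted p = 2.5e-07). The group levels were 3141 ± 203 in mCherry and 447 ± 122 in FL (normalised reads, SD, n = 2), a 7.14-fold difference. It fell by 2.71 in C1C3a (SE 0.23), by 2.43 in C3+14 (SE 0.23) and by 2.02 in C1C3b (SE 0.23, adjusted p = 7.2e-06). When libraries were set to the same total, the differences were -3.86, -3.62, -3.22 and -2.12. That scale moved the median gene down in each of these comparisons too, so the larger falls follow from the scale and are no separate evidence. The fall in C3+14 was measured between libraries of the same kind. In C1+14 the difference was -0.95 (adjusted p = 0.0073), under the 2-fold limit, and in C1C3c it was -0.61 (adjusted p = 0.046). In the order of levels, the step from C1+14 to C1C3b passed the test (1.08, adjusted p = 0.0020), and no step among C1C3b, C3+14, C1C3a and FL did.

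Tet1 was also highest in mCherry, but lowest in C1C3b. It stood at 7290 and 7844 normalised reads in mCherry, 6207 and 4863 in C1+14, 6380 and 3505 in C1C3c, 3262 and 3763 in C1C3a, 3215 and 3247 in C3+14, 1684 and 2958 in FL, and 1713 and 1379 in C1C3b. The C1C3c libraries lay far enough apart to overlap those of C1C3a. Tet1 fell by 2.30 in C1C3b (SE 0.27, adjusted p = 9.8e-06), by 1.76 in FL (adjusted p = 8.8e-05), by 1.23 in C3+14 (adjusted p = 0.0014) and by 1.11 in C1C3a (adjusted p = 0.0029), each with SE 0.27. With equal library totals, where the median gene also moved down, the differences were -2.39, -2.79, -2.01 and -2.03. In C1C3c it was -0.68 (adjusted p = 0.057) and in C1+14 -0.46 (adjusted p = 0.22), and neither passed the test. No neighbouring groups in the order of Tet1 levels differed beyond the test's threshold.

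Tet3, the TET gene of the oocyte and zygote, was the lowest of the 8 per kilobase of exon and moved in both directions. It stood at 156 and 164 normalised reads in mCherry, 303 and 382 in C1+14, 269 and 225 in C1C3c, 105 and 142 in C1C3b, 100 and 115 in FL, 43.6 and 47.0 in C3+14, and 53.1 and 26.9 in C1C3a. Every library of C3+14 and C1C3a was below every other library, and C1C3c and C1+14 lay above mCherry. Tet3 fell by 2.05 in C1C3a (SE 0.30, adjusted p = 6.1e-05) and by 1.80 in C3+14 (SE 0.30, adjusted p = 0.00019). It rose by 1.09 in C1+14 (SE 0.30, adjusted p = 0.016), a call that was lost when either mCherry library was left out (adjusted p = 0.091 and 0.070) or replicate 2 of C1+14 was left out (0.92, adjusted p = 0.10). FL had a difference of -0.57 (adjusted p = 0.12), which with equal totals was -1.58 (adjusted p = 0.0012).

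Among the genes for new methylation, Dnmt3a was lower in C1C3b, C3+14 and C1C3c. Its libraries stood at 634 and 676 normalised reads in mCherry, 595 and 699 in C1+14, 622 and 427 in FL, 371 and 426 in C1C3a, 315 and 285 in C3+14, 322 and 277 in C1C3c, and 214 and 185 in C1C3b. All libraries of C3+14, C1C3c and C1C3b were below all libraries of the other groups. Dnmt3a fell by 1.71 in C1C3b (SE 0.19, adjusted p = 6.6e-06), by 1.13 in C1C3c (adjusted p = 0.00042) and by 1.12 in C3+14 (adjusted p = 0.00021). With equal totals the C1C3c difference was -0.94, under the 2-fold limit, and FL, at -0.34 on the deposited scale (adjusted p = 0.14), was called lower at -1.37. C1C3a was at -0.72 (adjusted p = 0.0054), under the 2-fold limit, and was called lower with equal totals (-1.63).

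Dnmt3b, the other catalytic member of the pair, was called in C3+14 alone among the constructs set against mCherry on the deposited scale. It stood at 2767 and 2646 normalised reads in mCherry, 2857 and 2436 in FL, 1989 and 2791 in C1+14, 1770 and 2945 in C1C3a, 1901 and 1467 in C1C3c, 1700 and 1568 in C1C3b, and 1228 and 1223 in C3+14. Both C3+14 libraries were below all others, and the C1C3a pair was the widest. Dnmt3b fell by 1.14 in C3+14 (SE 0.22, adjusted p = 0.00047). It was at -0.73 in C1C3b (adjusted p = 0.0105) and -0.70 in C1C3c (adjusted p = 0.0189), both under the 2-fold limit. With equal totals it was also called lower in FL (-1.07) and C1C3a (-1.16), where the deposited scale gave -0.04 and -0.25.

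Dnmt3l, the cofactor without catalytic activity, was higher in 4 of the 6 constructs. It stood at 396 and 381 normalised reads in mCherry, 437 and 353 in C1C3b, 568 and 682 in C3+14, 706 and 953 in C1C3a, 693 and 1386 in C1C3c, 1569 and 807 in FL, and 1125 and 1393 in C1+14. The mCherry libraries overlapped those of C1C3b and no others, and the replicates of FL and of C1C3c lay far apart. Dnmt3l rose by 1.69 in C1+14 (SE 0.32, adjusted p = 0.0017), by 1.53 in FL (adjusted p = 0.0011), by 1.33 in C1C3c (adjusted p = 0.0045) and by 1.08 in C1C3a (adjusted p = 0.010). With equal totals the rise remained in C1+14 (1.91) and C1C3c (1.53) but was 0.50 in FL (adjusted p = 0.14) and 0.16 in C1C3a (adjusted p = 0.63). Without replicate 2, C1C3c was at 0.84 (adjusted p = 0.072) and C1C3a at 0.86 (adjusted p = 0.093). edgeR gave 0.95 in C1C3a, under the 2-fold limit. C3+14 was at 0.68 (adjusted p = 0.082), and at -0.11 with equal totals. Aire, which overlaps it on the other strand, had 30.9 and 221 normalised reads in FL, where Dnmt3l was higher in the library with the lower Aire value, and 241 and 326 in C1+14 against 50.8 and 44.6 in mCherry. Its part in the Dnmt3l values was not tested.

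Of the maintenance genes, Dnmt1 was called in no comparison with mCherry and Uhrf1 in C1C3a alone, on the deposited scale. Dnmt1 stood at 6718 and 7071 normalised reads in mCherry, 9948 and 9612 in FL, 7540 and 8678 in C1+14, 6538 and 7179 in C1C3a, 6863 and 6790 in C3+14, 6492 and 5783 in C1C3c, and 5384 and 5529 in C1C3b. FL lay above and C1C3b below all other libraries. The FL difference was 0.50 (SE 0.11, adjusted p = 0.0011), under the 2-fold limit, and turned to -0.53 (adjusted p = 0.0012) with equal totals and to -0.20 with quantile normalization. In C1C3b the difference was -0.34 (adjusted p = 0.0145), and -0.43 with equal totals. C3+14 and C1C3a were both at -0.01, and at -0.80 and -0.93 with equal totals.

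Uhrf1 stood at 8719 and 9037 normalised reads in mCherry, 17002 and 21304 in C1C3a, 12385 and 16594 in FL, 12733 and 11995 in C3+14, 7389 and 8565 in C1+14, 8164 and 4054 in C1C3c, and 5273 and 5461 in C1C3b. Every library of C1C3a, FL and C3+14 was above mCherry and every library of the other 3 constructs was below it. Uhrf1 rose by 1.10 in C1C3a (SE 0.24, adjusted p = 0.0016), but by 0.27 with quantile normalization, 0.18 with equal totals, 0.97 with edgeR and 0.94 without replicate 2 of C1C3a, none of which was called. It was at 0.69 in FL (adjusted p = 0.026), which turned to -0.34 with equal totals, and at -0.73 in C1C3b (adjusted p = 0.020, and -0.82 with equal totals), both under the 2-fold limit. In C3+14 it was at 0.48 (adjusted p = 0.11), which turned to -0.31 with equal totals.

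Compared per kilobase of exon on the deposited scale, the order of levels in mCherry was Uhrf1 (2085 ± 52.9 normalised reads per kilobase, SD, n = 2), Dnmt1 (935 ± 33.8), Dnmt3b (530 ± 16.6), Tet1 (490 ± 25.3), Tet2 (186 ± 12.0), Dnmt3l (130 ± 3.55), Dnmt3a (39.4 ± 1.78) and Tet3 (9.57 ± 0.344). In FL, Uhrf1 (3402 ± 699), Dnmt1 (1326 ± 32.2) and Dnmt3b (518 ± 58.3) kept the first 3 places. Dnmt3l (398 ± 180) came next, above Tet1 (150 ± 58.3), and Tet2 (26.5 ± 7.22) stood beside Dnmt3a (31.5 ± 8.26). The length used is that of all annotated exons of a gene together, from 2.99 kilobases for Dnmt3l to 16.9 for Tet2.

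**Figure D2:**
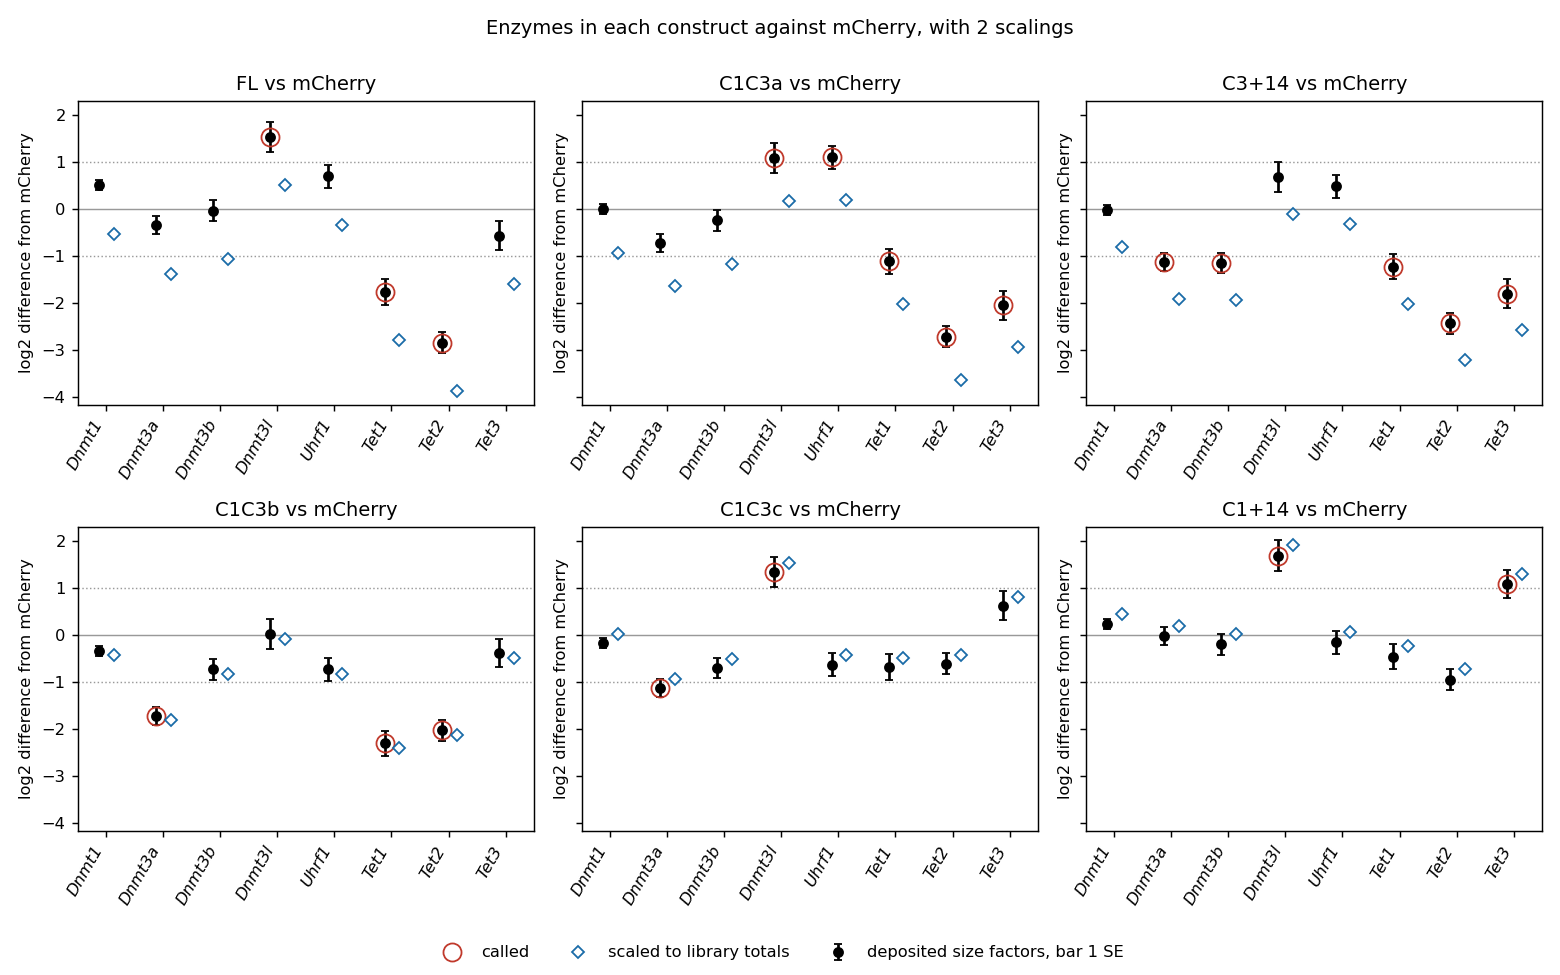
Log2 difference from mCherry (vertical axis) of each gene in the 6 constructs; black points use the deposited size factors with bars of 1 SE, rings mark called genes, diamonds use equal library totals, and dotted lines mark a 2-fold difference. Tet2 lies below -2 in FL, C1C3a, C3+14 and C1C3b under both scales, while Dnmt1 and Uhrf1 in FL lie on different sides of 0.

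Comparisons among the constructs show where the same genes separate one derivative from another. Against FL, C3+14 called 2 genes (26.3% of all genes, 9.54% lower) and both were lower: Dnmt3b at -1.11 (SE 0.22, adjusted p = 0.0014) and Tet3 at -1.23 (SE 0.30, adjusted p = 0.0058). Neither was called with equal totals, where the differences were -0.86 and -0.98, and Dnmt3b was not called with quantile normalization (-0.99). These groups are of different library kinds. Without replicate 2 of FL 4 genes were called and without replicate 1 of FL 1 was. The share of all called genes that were higher was 63.8%, against 74.4% with equal totals. C1C3a, of the same kind as FL, called 1 gene against it (15.6% of all genes), Tet3, which fell by 1.48 (SE 0.30, adjusted p = 0.0034) and by 1.34 with equal totals. Without replicate 2 of FL 2 genes were called, and the share of all called genes that were higher was 70.4%, against 58.6% with quantile normalization. Tet1 and Tet2 did not pass the test in either comparison, with Tet2 differences from FL of 0.41 in C3+14 (adjusted p = 0.18) and 0.13 in C1C3a (adjusted p = 0.73).

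The 3 constructs named C1C3a, C1C3b and C1C3c were also set against C1+14, all of 1 library kind. C1C3b called 5 genes (28.9% of all genes, 11% lower), all lower: Tet1 at -1.84 (adjusted p = 0.00014), Dnmt3a at -1.69 (adjusted p = 1.9e-05), Dnmt3l at -1.67 (adjusted p = 0.0010), Tet3 at -1.47 (adjusted p = 0.0016) and Tet2 at -1.08 (adjusted p = 0.0020). All 8 genes had their C1C3b libraries below both C1+14 libraries, as did 31.2% of all genes, and all 5 calls held with equal totals. The Tet2 call was lost without replicate 2 of C1C3b (-0.87) or replicate 1 of C1+14 (-0.83). C1C3a called 3 (40.8% of all genes): Tet3 fell by 3.14 (adjusted p = 1.6e-06), Tet2 fell by 1.76 (adjusted p = 2.5e-05) and Uhrf1 rose by 1.26 (adjusted p = 0.00069). With equal totals 7 genes were called, all lower (44.6% of all genes were called lower on that scale), and Uhrf1 was at 0.12. The share of all called genes that were higher was 57.5% in that comparison, against 21.3% with equal totals and 39.1% with quantile normalization, and 61.9% for C1C3b, against 45.9% and 47.3%. C1C3c called 1 (7.83% of all genes), Dnmt3a, which fell by 1.11 (SE 0.19, adjusted p = 0.0028) and by 0.99 (not called) without replicate 2 of C1+14. The comparisons with mCherry, and those with C1+14, share their control libraries.

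The deletion table set FL beside constructs that lack what the labels call C12345, 14 or both. In it 6 of the 8 genes differed among the 4 groups by the limma F test (49.6% of 19833 genes), and Dnmt1 (adjusted p = 0.13) and Dnmt3b (adjusted p = 0.40) did not pass. Both constructs named deltC12345 had higher Dnmt3a, Tet1, Tet2 and Tet3 than FL. The lower pseudogene share (10.5% to 10.8%, against 11.2% to 11.9%) was here found in replicate 2 of deltC12345+14 and in replicate 1 of deltC12345delt14. Within each of those constructs the 2 replicates differed by at most 1.34-fold and 1.26-fold at any of the 8 genes, and a term for the library kind left all 12 calls of the table in place. The summed fibroblast markers were 183 to 221 in FL, 214 to 281 in C12345delt14, 576 to 612 in deltC12345+14 and 496 to 741 in deltC12345delt14, and their part in the results was not tested.

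**Figure D3:**
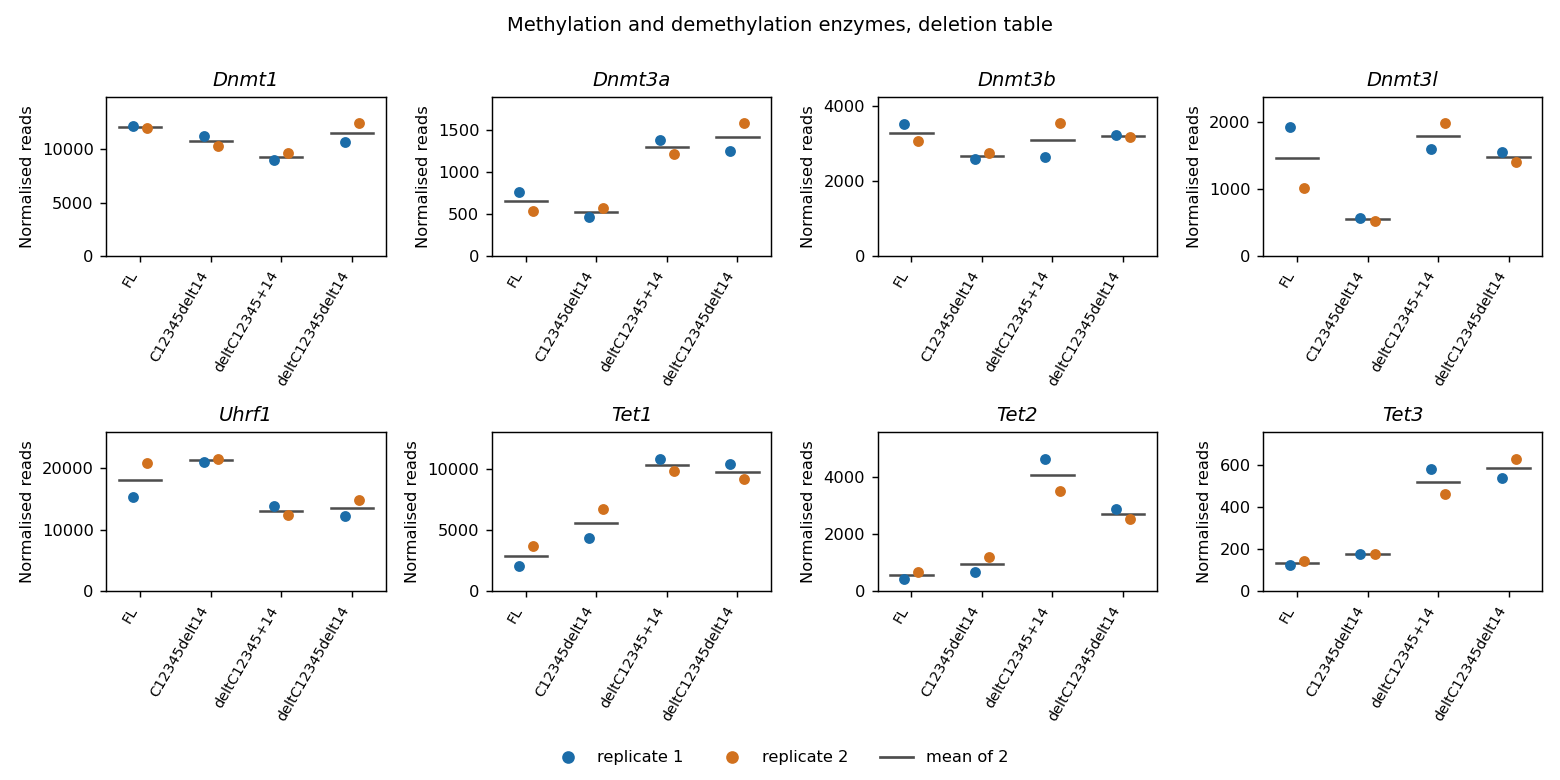
Normalised reads (vertical axis, from 0) of the 8 genes in the 8 libraries of the deletion table; points are libraries coloured by replicate number and the line is their mean. Tet1, Tet2, Tet3 and Dnmt3a are higher in both groups named deltC12345 than in FL, Dnmt3l is lowest in C12345delt14, and Dnmt1 and Dnmt3b are at similar levels in all groups.

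Tet2 stood at 444 and 667 normalised reads in FL, 674 and 1218 in C12345delt14, 4650 and 3519 in deltC12345+14, and 2872 and 2545 in deltC12345delt14. The groups did not overlap, and both constructs named deltC12345 were far above the other groups. Tet2 rose by 2.89 over FL in deltC12345+14 (SE 0.31, adjusted p = 0.00030) and by 2.31 in deltC12345delt14 (SE 0.31, adjusted p = 0.00076). Tet1 stood at 2071 and 3700 in FL, 4353 and 6741 in C12345delt14, 10810 and 9785 in deltC12345+14, and 10365 and 9120 in deltC12345delt14. It rose by 1.89 (adjusted p = 0.0015) and by 1.81 (adjusted p = 0.0017) in the same order, SE 0.29. Tet3 stood at 123 and 144 in FL, 178 and 179 in C12345delt14, 580 and 463 in deltC12345+14, and 538 and 631 in deltC12345delt14, and rose by 1.95 (adjusted p = 0.00035) and 2.12 (adjusted p = 0.00021). On the scale of equal totals, where the median gene also moved up, these 6 rises were between 2.98 and 4.10.

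Dnmt3a stood at 765 and 535 normalised reads in FL, 461 and 576 in C12345delt14, 1377 and 1210 in deltC12345+14, and 1257 and 1584 in deltC12345delt14. It rose by 1.01 in deltC12345+14 (SE 0.22, adjusted p = 0.0069) and by 1.14 in deltC12345delt14 (adjusted p = 0.0040). Without replicate 2 of FL these were 0.75 and 0.88, under the 2-fold limit, as were 0.92 without replicate 1 of deltC12345+14, 0.97 without replicate 2 of deltC12345delt14 and 0.99 in deltC12345+14 with DESeq2. Each of the 2 comparisons with FL thus called 4 of the 8 genes, all higher, where 38.4% and 39.1% of all genes were called (18.4% and 18.8% higher). The 2 comparisons share the FL libraries. The other 4 genes were not called in either. In deltC12345+14 Dnmt1 was at -0.38 (SE 0.13, limma adjusted p = 0.040), under the 2-fold limit. Dnmt1, Dnmt3b and Dnmt3l moved from differences of -0.38 to 0.35 on the deposited scale to 0.83 to 1.57 with equal totals, and Uhrf1 from -0.45 and -0.40 to 0.77 in both, where the median gene moved by 1.21 and 1.17. There the share of called genes that were higher was 83.1% and 81.7%, against 47.9% and 48.1% on the deposited scale, and 63.6% and 63.3% with quantile normalization.

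C12345delt14 called none of the 8 genes against FL with limma (0.958% of all genes were called), and 3 of the 8 had an unadjusted p under 0.05. Over all genes 4935 had an unadjusted p under 0.05, edgeR called 467 and DESeq2 called 1293. edgeR and DESeq2 on recovered reads each called 1 of the 8, Dnmt3l. It stood at 1930 and 1010 normalised reads in FL and at 569 and 526 in C12345delt14, a difference of -1.35 (SE 0.28, adjusted p = 0.063), with both C12345delt14 libraries below both FL libraries. Tet1 was at 0.97 (adjusted p = 0.11) and Tet2 at 0.74 (adjusted p = 0.19). Without replicate 2 of FL 2 of the 8 were called. The share of all genes called without that library is not given, so this count cannot be read as particular to the 8 genes. The share of all called genes that were higher was 35.3%, against 47.2% with quantile normalization, and with equal totals no gene was called.

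Against deltC12345delt14, C12345delt14 called 4 of the 8 genes (22% of all genes, 9.4% lower), all lower: Tet3 at -1.70 (SE 0.21, adjusted p = 0.0011), Tet2 at -1.58 (SE 0.31, adjusted p = 0.0084), Dnmt3a at -1.45 (SE 0.22, adjusted p = 0.0031) and Dnmt3l at -1.43 (SE 0.28, adjusted p = 0.0086). Dnmt3l stood at 1601 and 1984 normalised reads in deltC12345+14 and at 1549 and 1405 in deltC12345delt14. Aire stood at 271 and 322 in C12345delt14, 38.1 and 277 in FL, and 573 to 909 in both groups named deltC12345, and its part was not tested. Without replicate 1 of C12345delt14 Dnmt3l and Tet2 had adjusted p = 0.067 and 0.065. Uhrf1 stood at 20923 and 21529 in C12345delt14, 15233 and 20757 in FL, 13772 and 12337 in deltC12345+14 and 12294 and 14744 in deltC12345delt14. It was 0.66 higher in C12345delt14 than in deltC12345delt14 (adjusted p = 0.027), under the 2-fold limit, and 0.01 with equal totals. The share of all called genes that were higher was 57.3%, against 26.7% with equal totals and 39.2% with quantile normalization.

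The 2 constructs named deltC12345 differed at 0 of 19833 genes with limma (0% called) and at none of the 8, with 543 genes, Dnmt1 among them, at an unadjusted p under 0.05. edgeR called 0 genes and DESeq2 called 3. Whether the presence of 14 mattered more with C12345 than without it was tested as an interaction. No gene of 19833 passed with limma, and 2748 (13.9%) had an unadjusted p under 0.05, with 4 of the 8 among them. These were Tet2 at -1.32 (SE 0.43, limma adjusted p = 0.31), Dnmt3l at 1.08 (SE 0.40), Tet1 at -1.05 (SE 0.41) and Dnmt1 at 0.48 (SE 0.19), the last 3 with limma adjusted p from 0.33 to 0.34. Dnmt1 stood at 12235 and 12024 normalised reads in FL, 11278 and 10285 in C12345delt14, 8988 and 9641 in deltC12345+14 and 10671 and 12455 in deltC12345delt14. Dnmt3b stood at 3514 and 3046, 2571 and 2748, 2631 and 3532, and 3229 and 3155 in the same order.

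Other genes of the pathway were taken from 7 lists, written with earlier results of these data known. Among 12 guides and regulators of methylation, 5 were called lower and 1 higher in FL against mCherry, where 19.6% of all genes were called lower and 24.5% higher. The counts of the next 5 lists in FL are to be read against the same shares. Prdm14, which restrains new methylation in naive cells, stood at 2239 ± 94.6 normalised reads (SD, n = 2) in mCherry and at 292 ± 27.0 in FL, a fall of -2.94 on the log2 scale (adjusted p = 1.5e-05). Zfp57, which keeps imprints, fell by 1.73 and Nsd1, a histone methyltransferase, fell by 1.64. The other lower genes were Zfp445 and Setd2, and the higher one was Trim28. For both Prdm14 and Zfp57, every library of every construct was below both mCherry libraries. Their differences were -2.66 and -1.41 in C1+14 and -5.23 and -3.87 in C1C3b. Dppa3, a factor of the oocyte and early embryo that counters maintenance methylation, rose in C1C3a (3.16, adjusted p = 0.0041) and C3+14 (3.05, adjusted p = 0.0051). In FL its replicates were 1167 and 79.8 normalised reads, against 79.8 and 95.2 in mCherry, and it was not called (adjusted p = 0.071).

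Of 5 TET partners and 2-oxoglutarate suppliers, 3 were called lower and 1 higher in FL. Cxxc5, a CpG-binding partner of the TET family, fell in FL (-2.65) and C3+14 (-2.91), as did Ogt, which binds TET proteins (-1.21 and -1.14). The third was Cxxc4, at 0 in both FL libraries and at a mean of 3.89 normalised reads in mCherry, near the floor of 3 reads. Cxxc5 was below mCherry (1171 and 1180 normalised reads) in every library of every construct, at 146 to 721. Idh2, which encodes a mitochondrial enzyme that makes 2-oxoglutarate, rose by 1.06 in FL but by 0.03 with equal totals. Of 7 readers of methylated DNA 4 were lower in FL, Zbtb38 (-2.53), Zbtb33 (-1.35) and Mbd1 (-1.02) among them, and none was higher. Without replicate 1 of FL 2 were lower, and Zbtb33 came just under the 2-fold limit. Of 7 maintenance partners, 1 was called in FL, the DNA ligase Lig1, which rose by 1.15. It was at 0.97 without replicate 1 of FL, 0.99 with edgeR and 0.11 with equal totals, none of which was called. With equal totals 4 of the 7 were called lower. Of 13 genes for repair of oxidised or deaminated cytosine, 3 were lower and 1 higher in FL. Gadd45a, a stress-induced repair factor, fell by 2.04, with differences of -1.35 without replicate 2 of FL and -2.72 without replicate 1. Smug1 and Gadd45g were the other lower ones. The Gadd45g call was lost without replicate 2 of FL (-1.62, adjusted p = 0.10) or replicate 2 of mCherry (adjusted p = 0.068). Parp1, which senses strand breaks, rose by 1.19 and was at 0.15 with equal totals. Without replicate 2 of mCherry 2 of the 13 were higher. Of 9 genes for methyl donor supply, 2 were lower and 2 higher in FL. Mat2b fell by 1.73, and Shmt2 and Ahcy were the higher ones, with Shmt2 at 1.06, at 0.97 without replicate 2 of FL and at 0.03 with equal totals. Without replicate 1 of FL 1 was higher, and with edgeR 0. Mat2a, which makes S-adenosylmethionine, fell in C1C3c (-1.64), C1+14 (-1.59) and C1C3b (-1.38) and was at -0.61 in FL, under the 2-fold limit. The medians of these 6 lists in FL were -0.16 for guides, -1.21 for TET partners, -1.02 for readers, -0.12 for maintenance partners, 0.04 for repair and 0.23 for methyl donors, beside 0.09 over all genes. With equal totals the higher calls of these 6 lists in FL came to 0, and the lower calls were 6 for guides, 4 for TET partners, 5 for readers, 4 for maintenance partners, 6 for repair and 3 for methyl donors. On that scale the median gene moved down too, and the share of all genes called lower is not given. These counts can therefore not be read as particular to the lists.

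The last list held 10 germline genes known to be held silent by promoter methylation. In FL and in C3+14, 7 of the 10 were called higher and 0 lower, where 24.5% and 29.6% of all genes were called higher. The median differences were 1.24 and 1.62, beside 0.09 and 0.23 over all genes. With equal totals 2 were called higher in FL and 4 in C3+14. Without replicate 1 of C3+14, 1 was called lower there. Slc25a31, a testis ADP/ATP carrier, stood at 40.2 and 44.6 normalised reads in mCherry, 508 and 381 in FL, 560 and 483 in C3+14, 422 and 526 in C1C3b, 309 and 324 in C1C3a, 117 and 129 in C1C3c, and 41.7 and 68.8 in C1+14. It rose by 3.35 in FL (adjusted p = 1.1e-07) and was not called in C1+14 (0.33, adjusted p = 0.35). Asz1, a germ cell protein of the transposon defence, stood at 15.8 and 11.2 in mCherry, 380 and 83.3 in FL, 189 and 204 in C3+14, 165 and 171 in C1C3b, 83.0 and 116 in C1C3a, 58.8 and 126 in C1C3c, and 73.8 and 71.9 in C1+14, and was called higher in all 6 constructs. In C1C3b, where equal totals moved the median gene by -0.10, 6 were higher and 1 lower under both scales. The higher ones on the deposited scale were Dazl, Ddx4, Asz1, Hormad1, Slc25a31 and Brdt, and the lower one was Tex101, a count that went to 0 without replicate 1 of C1C3b or either mCherry library. C1C3a and C1C3c each called 4 higher and 2 lower. The lower calls of C1C3a went to 0 when any 1 of the 4 libraries of that comparison was left out, and the higher ones to 2 with equal totals. Those of C1C3c went to 1 without either C1C3c library and to 0 without either mCherry library, and its higher calls to 2 without replicate 2 of mCherry. C1+14 called 1 higher (Asz1) and 2 lower (Sycp3 and Tex101), and 1 lower without replicate 1 of mCherry. The shares of all genes called in either direction in these 4 comparisons are the 44.7%, 46.4%, 28.8% and 18.3% given above. The germline counts are by direction, and the share of called genes that were higher stands above with the scales. The germline counts with equal totals have no share of all genes beside them and cannot be read as particular to the list. Methylation itself was not measured in these data.

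**Figure D4:**
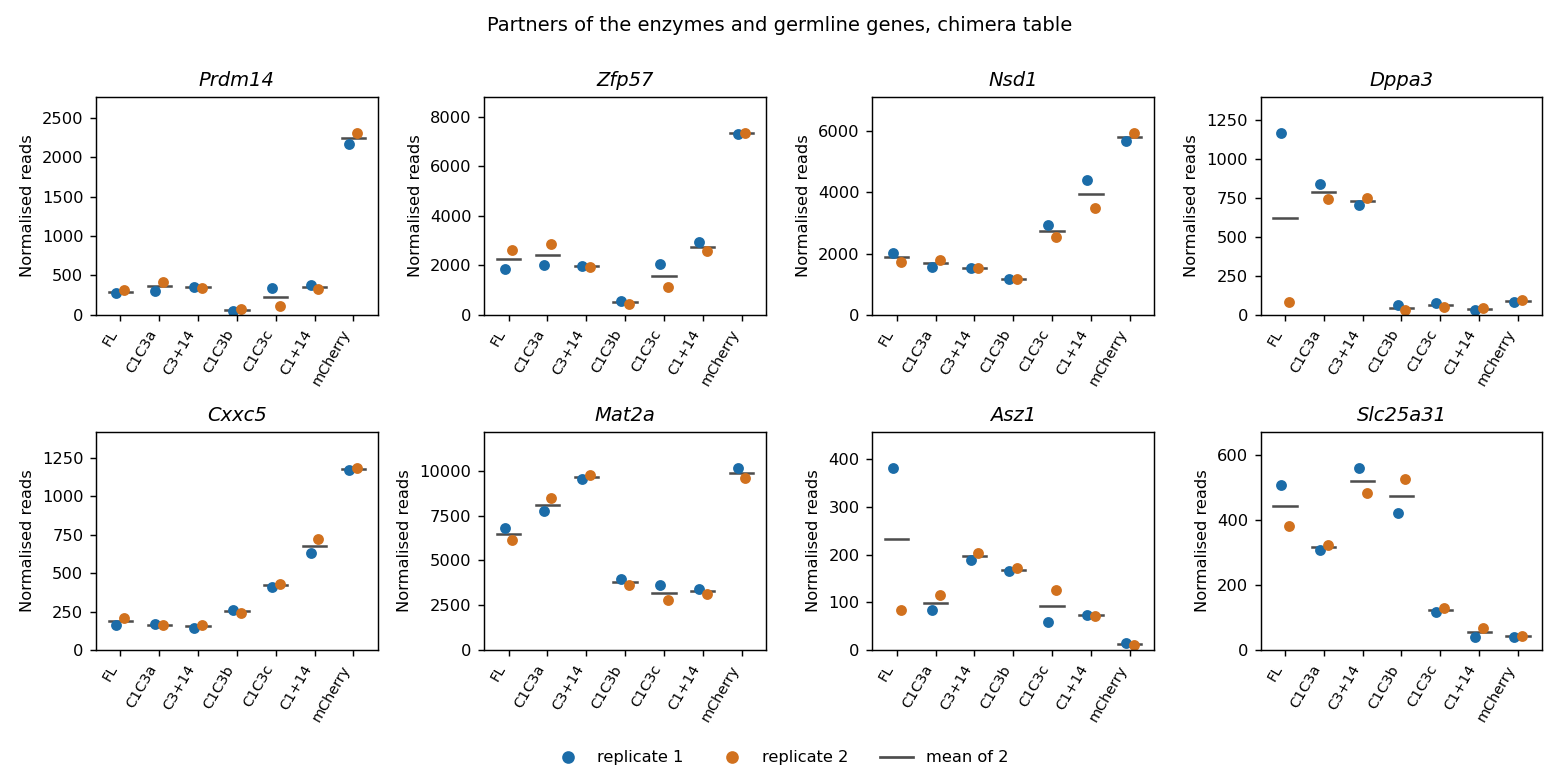
Normalised reads (vertical axis, from 0) of 8 genes of the pathway lists in the chimera table; points are libraries coloured by replicate number and the line is their mean. Prdm14, Zfp57, Nsd1 and Cxxc5 are highest in mCherry, Dppa3 has 1 high and 1 low library in FL, and Asz1 and Slc25a31 are higher in FL, C1C3a, C3+14 and C1C3b than in mCherry.

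In deltC12345delt14 against FL, Prdm14 (1.66, adjusted p = 0.0013), Nsd1 (1.36) and Cxxc5 (2.89) rose. Of the 12 guides and regulators 2 were higher and 2 lower (18.8% and 20.3% of all genes), with a median of 0.06 beside -0.11 over all genes. Dppa3 was among the lower ones, and with equal totals it was at -1.73 and not called. Of the TET partners and 2-oxoglutarate suppliers 4 were tested, with 1 higher and 0 lower. In the same comparison 4 of the 10 germline genes were lower and 0 higher (20.3% of all genes were lower). The 4 germline genes were Ddx4 (-1.19), Mael (-1.01), Asz1 (-3.27) and Slc25a31 (-2.05). The count of lower genes went from 4 to 0 with equal totals, without replicate 1 of FL or without replicate 2 of deltC12345delt14, and without replicate 2 of FL 1 was higher. With equal totals Ddx4 was at -0.02, Asz1 at -2.10 (adjusted p = 0.074) and Slc25a31 at -0.88. Without replicate 1 of FL Asz1 was at -2.19 (adjusted p = 0.15), and without replicate 2 of deltC12345delt14 at -2.58 (adjusted p = 0.097). Slc25a31 also lost its call without replicate 2 of FL (-2.25, adjusted p = 0.063).

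Over the 7 group means of the chimera table, Tet1 and Tet2 correlated at r = 0.77 and Tet2 and Tet3 at 0.74, while Uhrf1 and Tet3 gave -0.73 and Uhrf1 and Tet2 gave -0.62 (Pearson, n = 7 groups that share libraries and scale). Dnmt3a and Dnmt3b gave 0.80 and Dnmt1 and Dnmt3a 0.73. Among 10264 genes with a mean of at least 100 normalised reads, the 3 whose group means were most like Tet2 were Gjc1, Wdr76 and Mphosph6 (r from 0.987 to 0.993). For Tet1 the nearest were Dclre1a (0.985) and Plekhd1 (0.972), and for Tet3 the 3 were Rtn4ip1, Rundc3b and Lrp4 (0.992 to 0.996). For Dnmt3a they were Fads1, Rps6ka1 and Bhmt2 (0.988 to 0.992), for Dnmt3b Tpgs1, Rnf40 and Nagpa (0.976 to 0.983), and for Dnmt3l Oxct1, Pfkm and Apbb1 (0.921 to 0.935). For Dnmt1 they were Vps72, Med24 and Tmem107 (0.975 to 0.977), and for Uhrf1 Nrbp1, Atad3a and Zgpat (0.988 to 0.992).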

How the data were processed

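The measurements are poly(A) RNA-seq libraries of 10 groups with 2 replicates each (20 of 22 samples; C3delt14 was not analysed here). The deposited values are a normalised signal: read counts per gene that the authors scaled with a size factor for each library. The submitters' processing notes name mm10, Trim Galore 0.5.0, FastQC and DESeq2, with no roles stated. The aligner, the counting program and the annotation are not given in the sources used here. Within a library all values are multiples of the worth of 1 read (100% of 1220714 values whole, tolerance 0.001 reads), so whole reads were recovered. 1 read equals 0.620 to 1.81 normalised reads. Of 55487 identifiers, 55141 (99.4%) had a symbol in GENCODE M21.

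Groups were compared on log2(value + 1) by limma with a trend (R 4.3.3, limma 3.58.1), over the 21584 and 19833 genes that reached 10 normalised reads in 2 or more libraries, all groups of a table sharing 1 estimate of the spread, with Benjamini-Hochberg adjustment over all genes. Fold changes on the log2(value + 1) scale understate the change of low genes. Called means an adjusted p under 0.05 and at least 2-fold. edgeR 4.0.16 and DESeq2 1.42.0 on recovered reads were alternatives. edgeR called 9502 genes in FL against mCherry, where limma called 9531. Equal library totals and a crossed pairing of replicates were added after the data were seen. The scripts were tested on simulated data. The 8 genes and all lists were chosen with earlier results of these data known. Up to 3 called genes per list with the largest difference and a mean of at least 50 normalised reads were candidates for naming, and not all are named (some items are not reported here); Ddx4, Dazl and the genes shown where they were not called were named after their values were seen. Genes like a member were the 3 with the highest correlation, leaving out symbols that start with Gm or end in Rik. Depth limits low genes most: Tet3, with 19 to 827 reads, had the fewest reads of the 8.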

Additional observations from a re-analysis of the deposited data

How the results depend on the processing

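Of the recomputed differences of called members, 555 kept their call, 29 lost it and 0 changed sign. Differences that were not called are outside this tally, and some changed sign with equal totals. Among these were Dnmt1 in FL, Uhrf1 in FL and C3+14, and Dnmt3l in C3+14, all against mCherry. With no fold minimum the number of the 8 genes called was 5 in FL, 6 in C1C3b and 4 in C1C3c against mCherry (3, 3 and 2 in the report), 5 in C3+14 against FL (2), 2 in C1C3a against FL (1) and 2 in C1C3c against C1+14 (1). Of all 21584 genes, 13909 in FL, 13908 in C1C3b and 11155 in C1C3c had an unadjusted limma p under 0.05 against mCherry. The counts of this paragraph show changes with the setting and cannot be read as particular to the 8 genes. With equal library totals it was 5 in FL and 1 in C1C3c against mCherry, 0 in C3+14 against FL, 7 in C1C3a against C1+14 and 7 in deltC12345delt14 against FL. edgeR gave 3 in C1C3a against mCherry (5), and quantile normalization gave 1 in C3+14 against FL. In C12345delt14 against FL, 1 gene was called with edgeR, DESeq2, a pseudocount of 8, a term for library kind or only the 2 groups in the fit (0 in the report). Apart from what the equal totals and the filters change by construction, the cause was not tested.

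Leaving out 1 library at a time gave 3 to 5 in C1C3a against mCherry, 1 to 4 in C1C3c, 1 to 3 in C1+14, 1 to 4 in C3+14 against FL, 1 to 2 in C1C3a against FL, 0 to 1 in C1C3c against C1+14, 0 to 2 in C12345delt14 against FL and 2 to 4 in C12345delt14 against deltC12345delt14. The lowest and highest came without replicate 2 of C1C3a, either replicate of C1C3c, replicate 2 of C1+14 or of mCherry, either replicate of FL, and replicate 1 of C12345delt14. The lone sample left in a group was assumed to vary like the other groups. The share of all genes called is not given for any fit that left out a library. Counts from such fits, here and above, can therefore not be read as particular to the genes or lists counted.

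A replicate block left all 44 calls of the 8 genes in place and moved no count of them by over 1.5 times. The numbers did not pair the samples: deviations of same-numbered samples correlated at -0.10 to 0.05 in the chimera table and at -0.57 to 0.14 in the deletion table. The lowest was between deltC12345+14 and deltC12345delt14, where a crossed pairing, added after the data were seen, called 0 genes, as did the same fit without a block. Depth limits Tet3 most among the 8 genes.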
